A study of Mus musculus with 6 samples.

Results

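The genes described here encode the nuclear subunits of the oxidative phosphorylation (OXPHOS) machinery, the respiratory complexes I to IV and the ATP synthase, complex V. They were chosen by symbol from the table of read counts: names starting with Nduf followed by a, b, c, s or v and a digit, Sdha to Sdhd, names starting with Uqcr, Cox4 to Cox8, and names starting with Atp5. The rule found 84 of 23420 gene rows, of which 37 were complex I, 4 complex II, 8 complex III, 18 complex IV and 17 complex V by symbol. RNA-seq libraries came from mouse epidermal keratinocytes in culture, and all of them carried floxed Gata6 alleles (Gata6 fl/fl). The 3 libraries labelled WT lacked the K14CreERT2 transgene and the 3 labelled iKO carried it. K14 is the promoter of a basal keratinocyte keratin, and CreERT2 is a recombinase that needs tamoxifen. Cells of both groups were at passage 8 to 10 in low calcium E medium and had received 1 µM 4-hydroxytamoxifen for 6 hours, so the drug was shared and the transgene was not. The labels do not say whether the libraries came from separate animals or cultures, so p-values measure only the spread between these libraries. The study's title concerns Gata6, a zinc finger transcription factor, in progenitor cells of the hair follicle.

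Oxidative phosphorylation takes place in the inner mitochondrial membrane. Complex I oxidises NADH and complex II oxidises succinate, both pass electrons to ubiquinone, complex III hands them to cytochrome c, and complex IV reduces oxygen. Complexes I, III and IV pump protons, and complex V uses the proton gradient to make ATP. Most subunits are nuclear genes translated in the cytosol and imported, while a few are encoded by mitochondrial DNA and are not analysed here. Cultured keratinocytes are known to draw much of their ATP from glycolysis, and succinate dehydrogenase, complex II, also serves the tricarboxylic acid (TCA) cycle.

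The libraries are named by group and number, and 1 iKO column, numbered 33, matched no title number and was used as a replicate of its group. Gene counts ranged from 21943467 to 83337263 per library. Gata6 went against the labels: it measured 2.86, 0.519 and 5.37 CPM (counts scaled to library size) in WT 2, 3 and 4 and 14.2, 21.0 and 17.0 CPM in iKO 3, 4 and 33, so the groups are called by their labels throughout. Which part of the gene the deletion removes is not given in the sources used here. Sex went with the label, since Xist lay between 605 and 889 CPM in WT and between 0.0824 and 2.62 CPM in iKO. The 10 keratinocyte markers summed to 34807 to 48810 CPM in WT and 37042 to 53243 CPM in iKO. Of the 10, 4 were above and 6 below 0, none passed edgeR, and DESeq2 called Trp63, at a log2 fold change of -0.68 (SE 0.10), and Cdh1, at 0.55 (SE 0.12). Krt15 stood at -1.28 (SE 0.49) with overlapping groups. Markers of fibroblasts, melanocytes, immune, endothelial, muscle and brown fat cells each summed to at most 19.05 CPM in any library, with Dcn, Lum, Dct, Cd207, Emcn, Myl1 and Elovl3 at 0 in all of them. The fibroblast marker Col6a2 measured 0.378 ± 0.141 CPM in WT and 1.34 ± 0.200 in iKO (SD, n = 3) and passed DESeq2 but not edgeR. The part of these markers in the results was not tested. In bulk RNA, fewer cells of a type and less RNA per cell cannot be told apart.

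The subunit genes stood at nearly equal levels in the groups. Their counts made up 1.06%, 1.14% and 1.11% of gene counts in WT 2, 3 and 4 and 1.13%, 1.03% and 1.05% in iKO 3, 4 and 33, and these ranges overlap. Of the 84 genes, 76 passed the filter on low counts and entered the test with 12672 genes in all. None of the 76 had an adjusted p under 0.05 in edgeR's quasi-likelihood test, where 0.339% of all tested genes did. With DESeq2, 2 members passed, Sdha and Ndufa10, both lower in iKO, against 6.49% of all genes with an adjusted p there and 3.15% counting the lower ones. The authors' deposited table has the same 2 members past 0.05 of 75 with an adjusted p there, where 5.90% of all its genes passed. In edgeR, 7 members had an unadjusted p under 0.05, 2 higher and 5 lower in iKO, and the share over all tested genes was 15.0%, or 7.32% higher and 7.70% lower.

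The median log2 fold change, iKO relative to WT, was 0.02 over the 76 members, with 39 above and 37 below 0. The interquartile range ran from -0.13 to 0.11, against -0.19 to 0.22 over all tested genes, whose median was 0.01. The members were also measured more tightly, with a median standard error (SE) of 0.138 against 0.190. The 95% interval lay within 1 log2 unit of 0 for 75 of 76 members, all but Ndufa4l2, and for 69.2% of all tested genes. It lay within 0.5 of 0 for 49 of the 76 members and for 3558 of the 12672 tested genes. The 3 WT and 3 iKO values did not overlap for 13 members, 4 higher and 9 lower in iKO, where 21.9% of all tested genes were so separated, 10.5% higher and 11.3% lower.

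**Figure D1:**
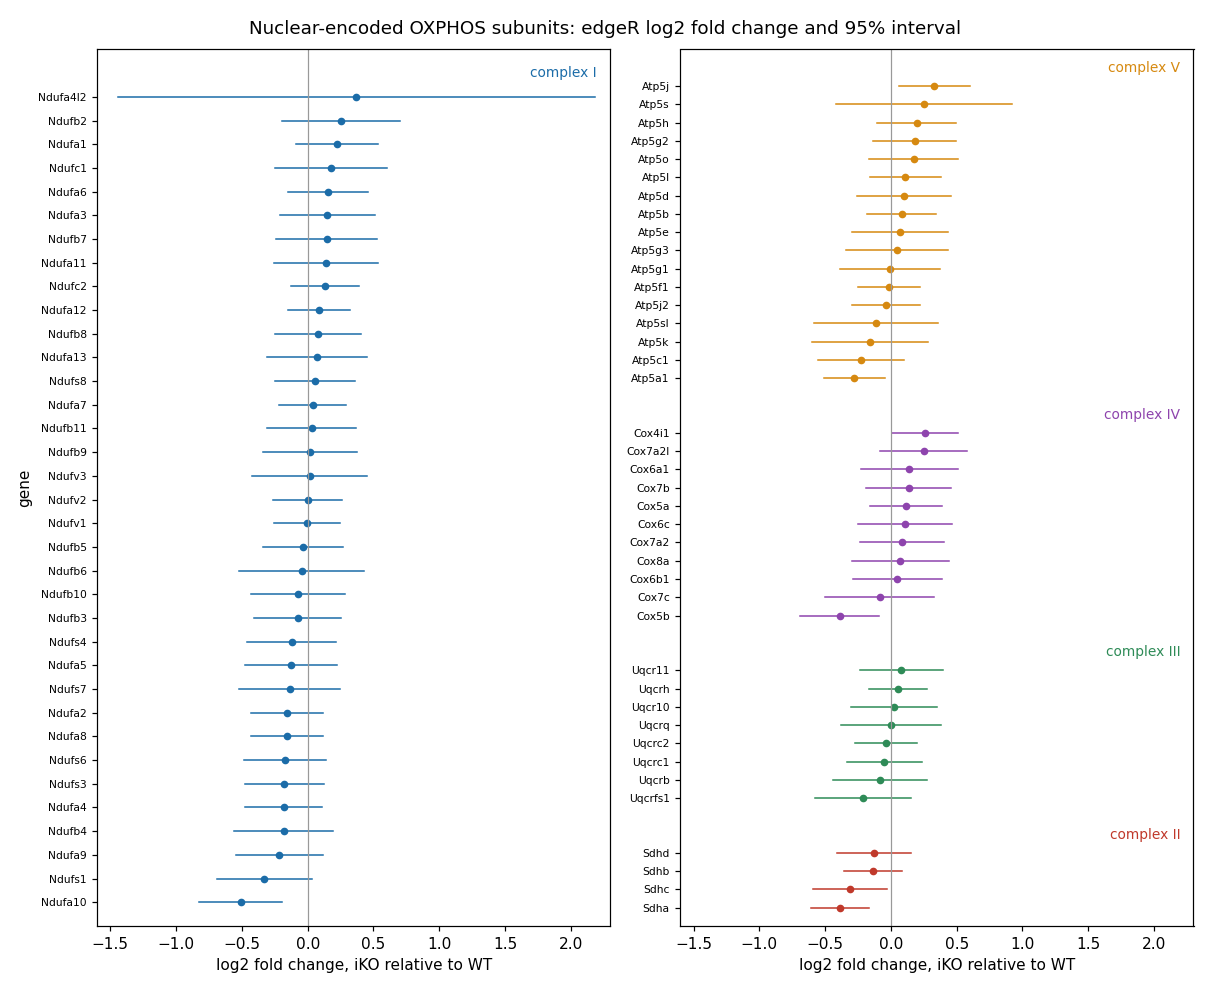
Each point is the edgeR log2 fold change of 1 gene, iKO relative to WT, and each line its 95% interval, for 75 of the 76 tested subunits sorted within complexes I to V. Most intervals cross 0, the 4 complex II genes all lie below 0, and Ndufa4l2, with few counts, has the widest interval, from -1.44 to 2.18.

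Complex I, NADH dehydrogenase, is the largest complex, and its 36 tested genes divided into 17 higher and 19 lower in iKO with a median log2 fold change of -0.0031. The catalytic core genes, which bind NADH, carry the iron-sulphur clusters and pass electrons on to ubiquinone, had 6 of 7 below 0 and a median of -0.14. The accessory genes, which surround the core, had 15 of 27 above 0 and a median of 0.02. Of the core genes, 5 lay off chromosome 1, with 4 below 0 and a median of -0.0055, so the core median depended on chromosome 1. This difference between core and accessory genes was not tested.

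Ndufa10, an accessory subunit of the complex I membrane arm, had the lowest log2 fold change of all members. It measured 127, 131 and 99.7 CPM in WT 2, 3 and 4 and 85.8, 78.6 and 87.0 CPM in iKO 3, 4 and 33. All 3 iKO values lay below the lowest WT value. The log2 fold change was -0.51 (SE 0.13), with an adjusted p of 0.170 in edgeR and 0.0289 in DESeq2. Ndufs1, the largest core subunit and carrier of several iron-sulphur clusters, measured 117, 153 and 106 CPM in WT and 98.5, 95.7 and 105 CPM in iKO. Its groups were apart by less than 1 CPM, between WT 4 and iKO 33, and the log2 fold change was -0.33 (SE 0.15, edgeR adjusted p = 0.372). At the other end, the accessory subunit gene Ndufb2 had a log2 fold change of 0.25 (SE 0.19), with 31.7, 36.8 and 41.9 CPM in WT and 55.5, 38.2 and 38.1 CPM in iKO. Those groups overlapped, and a single library, iKO 3, was above the rest. Ndufa4 and Ndufa4l2 carry complex I names but are now placed with complex IV, and Ndufa4l2 is a known target of hypoxia-inducible factor. Per length, Ndufa4l2 made up 0.0649% ± 0.0400 of the pair in WT and 0.0903% ± 0.0526 in iKO (SD, n = 3).

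One complex I gene was listed at 0 in every library. Ndufs5, an accessory subunit gene on chromosome 4 (123712710 to 123718202, minus strand, GRCm38), had 0 counts in all 6 libraries, which allows up to 3 counts in a library, or 0.0360 to 0.137 CPM. Yet BC002163, annotated in GENCODE as a processed pseudogene on chromosome 16 (42955631 to 42955949, plus strand), is nearly the same as the Ndufs5 coding sequence. The first 160 bases of the Ndufs5 coding sequence and of the annotated copy, from GENCODE, are shown. Reads from within this stretch can hardly be told apart, and the capitals mark every mismatch of the alignment.
Ndufs5: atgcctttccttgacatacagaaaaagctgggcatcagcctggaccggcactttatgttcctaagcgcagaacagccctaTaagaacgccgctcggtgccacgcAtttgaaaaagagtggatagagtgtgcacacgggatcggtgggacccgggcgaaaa
BC002163: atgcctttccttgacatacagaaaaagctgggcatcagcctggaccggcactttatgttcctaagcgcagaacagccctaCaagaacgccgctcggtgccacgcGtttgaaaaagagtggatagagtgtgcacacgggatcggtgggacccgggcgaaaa
The alignment covered 319 positions with 2 mismatches, an identity of 99.37%. In the coding sequence, 196 of the 272 stretches of 50 bases occurred unchanged in the copy. Over the whole Ndufs5 transcript of 525 bases, 41.2% of such stretches occurred in another annotated gene, only BC002163. The remaining stretches matched no other annotated gene, and why they too gave 0 counts was not tested.

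BC002163 is no member by the symbol rule and was chosen after its values were seen. It had 69, 192 and 98 counts in WT 2, 3 and 4 and 0, 1 and 0 counts in iKO 3, 4 and 33, so the groups were far apart. In CPM it measured 2.80 ± 0.375 in WT and 0.00741 ± 0.0128 in iKO (SD, n = 3). Relative to all gene counts, the iKO to WT ratio was 0.00234, with an exact 95% interval of 5.90e-05 to 0.0131 that covers counting error only. It was among the 43 genes called by edgeR (adjusted p = 0.00678), lower in 3 of 3 iKO libraries, and lost the call without WT 2 (adjusted p = 0.0653). Over its alternatives the adjusted p ranged from 5.99e-10, with DESeq2, to that value. Whether these reads came from Ndufs5, from the copy or from both cannot be told apart, and the cause of the difference was not tested.

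Complex II, succinate dehydrogenase, has no subunit encoded in mitochondrial DNA, so all of its genes were measured. All 4 were lower in iKO, with a median log2 fold change of -0.22 over them. Their mean log2 CPM was 6.82, 6.91 and 6.93 in WT 2, 3 and 4 and 6.63, 6.72 and 6.60 in iKO 3, 4 and 33. The groups did not overlap on this mean, which none of the other complexes showed. It was not particular to complex II among the gene lists described below. Biogenesis regulators (5.19 to 5.27 in WT, 4.98 to 5.03 in iKO) and TCA cycle genes (6.94 to 6.99, 6.88 to 6.92) were also lower without overlap. Assembly factors, carriers and mitochondrial ribosomal proteins overlapped.

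Sdha, the flavoprotein that oxidises succinate, measured 177, 164 and 173 CPM in WT and 129, 132 and 132 CPM in iKO. The WT values all exceeded the iKO values, and the spread within each group was small beside the gap. Sdha lies on chromosome 13 (74322254 to 74350280, minus strand), and its log2 fold change was -0.39 (SE 0.09), with an adjusted p of 0.150 in edgeR, 0.00451 in DESeq2 and 0.00912 in the authors' deposited table. Sdhc, a membrane anchor subunit that helps bind ubiquinone, measured 96.5, 111 and 115 CPM in WT and 89.5, 91.5 and 79.1 CPM in iKO, again without overlap. Its log2 fold change was -0.31 (SE 0.12, edgeR adjusted p = 0.289). Sdhb, the iron-sulphur subunit, was the third gene without overlap, at 86.9, 88.6 and 86.2 CPM in WT and 79.2, 80.9 and 78.0 CPM in iKO. The gap was small, with a log2 fold change of -0.14 (SE 0.09, edgeR adjusted p = 0.545). Sdhd, the other membrane anchor, had overlapping groups and a log2 fold change of -0.13 (SE 0.12).

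**Figure D2:**
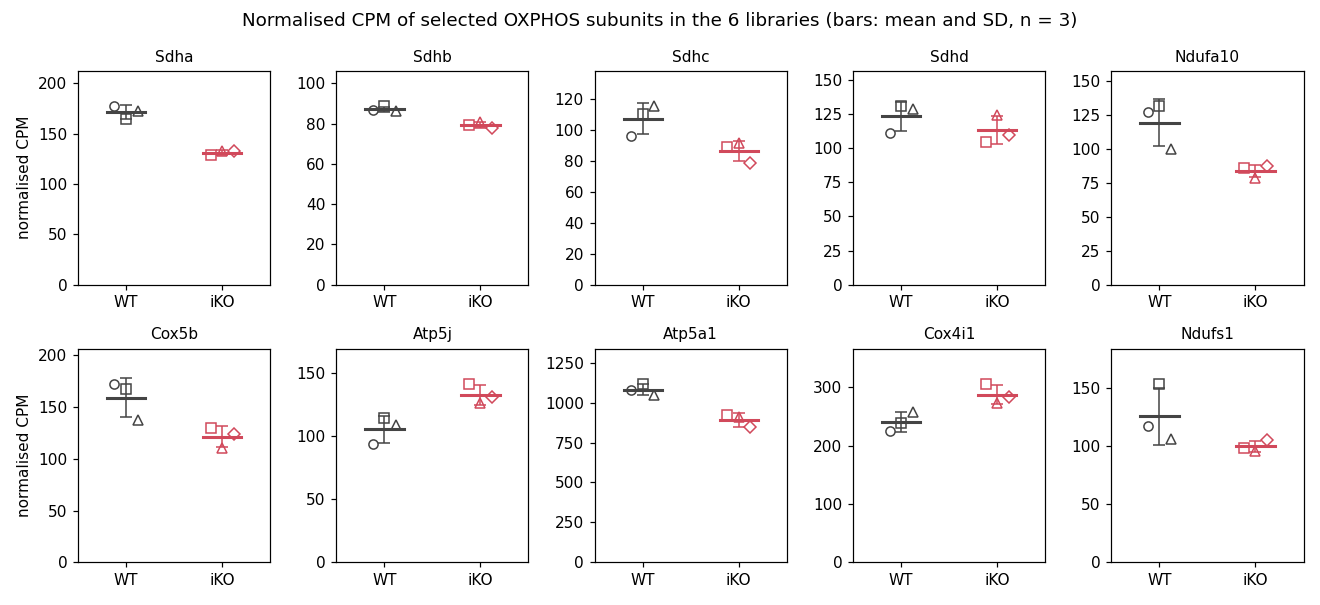
Normalised CPM on a linear axis from 0 for the 4 complex II genes, the other members with the smallest p, and Ndufs1, in 3 WT and 3 iKO libraries; marker shapes give library numbers, bars the mean and lines the SD. Sdha is the most tightly separated, at 171.5 ± 6.61 CPM in WT and 131 ± 2.25 CPM in iKO, while Atp5j and Cox4i1 lie higher in iKO.

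Complex III, the cytochrome bc1 complex, had 3 genes above and 5 below 0, a median log2 fold change of -0.02, and no gene whose groups were apart. The lowest was Uqcrfs1, the Rieske iron-sulphur protein, at 99.7, 143 and 121 CPM in WT and 109, 93.6 and 112 CPM in iKO. The groups overlapped widely, with a log2 fold change of -0.21 (SE 0.16). The highest, the accessory subunit genes Uqcr11 and Uqcrh, reached 0.08 (SE 0.13) and 0.05 (SE 0.09). Uqcrb, another accessory subunit gene, stood at -0.08 (SE 0.15).

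Complex IV, cytochrome c oxidase, takes its catalytic core from mitochondrial DNA, and the genes here encode the regulatory shell. Of the 11 tested, 9 were above and 2 below 0, with a median log2 fold change of 0.11. Cox4i1, the ubiquitous isoform of the subunit that binds ATP, measured 225, 238 and 257 CPM in WT and 305, 272 and 284 CPM in iKO. Each iKO value was above each WT value, with a log2 fold change of 0.26 (SE 0.11, edgeR adjusted p = 0.321). Cox7a2l, a factor that joins complexes III and IV into supercomplexes, had a log2 fold change of 0.25 (SE 0.14), but iKO 4, at 133 CPM, lay within the WT range. Against the others, Cox5b, a zinc-binding shell subunit, measured 172, 167 and 138 CPM in WT and 130, 111 and 124 CPM in iKO. Its groups did not overlap either, and the log2 fold change was -0.39 (SE 0.13, edgeR adjusted p = 0.234). Cox7c was the other gene below 0, at -0.08 (SE 0.18).

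Complex IV is also where tissue isoforms exist, and the keratinocytes used the general form of each. All 7 of the untested complex IV genes were such alternative isoforms. Cox4i2, an isoform of lung and of hypoxia, had 0, 1 and 0 counts in WT and 3, 0 and 1 counts in iKO. The heart and muscle isoforms Cox6a2 and Cox8b and the testis isoform Cox6b2 had 1 count each, in iKO 33, and the testis isoforms Cox7b2 and Cox8c had 0 counts in all 6 libraries. Cox7a1, the heart and muscle partner of Cox7a2, was the exception with 5, 10 and 2 counts in WT and 15, 11 and 20 counts in iKO. Per length it made up 0.235% ± 0.176 of the pair in WT and 0.483% ± 0.185 in iKO (SD, n = 3), with overlapping libraries, and it was too low to test. Cox4i1, Cox6a1, Cox6b1, Cox7b and Cox8a each made up over 99.9% of their isoform pair or trio in every library.

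Complex V had 10 genes above and 7 below 0 and a median log2 fold change of 0.07. The catalytic head is built from alternating subunits encoded by Atp5a1 and Atp5b, and these genes differed. Atp5a1, on chromosome 18, measured 1079, 1115 and 1049 CPM in WT and 922, 907 and 844 CPM in iKO, without overlap and with a log2 fold change of -0.28 (SE 0.10, edgeR adjusted p = 0.259). Atp5b, the beta subunit, measured 1575, 1588 and 1537 CPM in WT and 1848, 1601 and 1531 CPM in iKO, which overlap, with a log2 fold change of 0.08 (SE 0.11). Atp5c1, the central stalk subunit that turns within the head, was also lower without overlap, at 292, 368 and 285 CPM in WT and 282, 242 and 281 CPM in iKO. Its log2 fold change was -0.23 (SE 0.14, edgeR adjusted p = 0.485).

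Atp5j, a subunit of the peripheral stalk that holds the head in place, had the smallest p among members that were higher. It measured 93.6, 114 and 108 CPM in WT and 141, 126 and 131 CPM in iKO, so that every iKO library exceeded every WT library. The log2 fold change was 0.33 (SE 0.12, edgeR adjusted p = 0.258). The other peripheral stalk genes, Atp5h, Atp5o and Atp5f1, had overlapping groups and log2 fold changes of 0.19 (SE 0.13), 0.17 (SE 0.14) and -0.02 (SE 0.10). The c-ring, the rotor through which protons pass, has the genes Atp5g1, Atp5g2 and Atp5g3, which encode the same mature protein. Per length they made up 19.5% ± 2.05, 35.6% ± 2.39 and 44.9% ± 3.18 of their sum in WT and 18.4% ± 2.39, 37.7% ± 0.881 and 43.9% ± 1.82 in iKO (SD, n = 3), differences smaller than the larger SD of each pair. All 50-base stretches of Atp5g2 and 66% of those of Atp5g1 also occur in other annotated genes, mostly unnamed models, so these shares are uncertain. Atp5s and Atp5sl match the symbol rule but are not structural subunits; they were low, with log2 fold changes of 0.25 (SE 0.28) and -0.12 (SE 0.20).

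Levels can be compared between genes only per length of transcript, here the shortest principal transcript. On that scale Atp5b was highest, at 818 ± 13.9 CPM per kb in WT and 866 ± 87.0 in iKO, followed in WT by Ndufa4 (645 ± 21.9 in WT, 568 ± 77.4 in iKO). Atp5g3 (504 ± 84.1 CPM per kb in WT) and Atp5a1 (438 ± 13.3) came next and lay within the spread of Atp5g3. Within complex II the order in WT was Sdhd at 100.3 ± 8.80, Sdhb at 76.4 ± 1.08, Sdha at 59.1 ± 2.28 and Sdhc at 33.9 ± 3.10 CPM per kb, and the order in iKO was the same. The lowest tested genes were Ndufa4l2 at 0.421 ± 0.259, Atp5s at 3.31 ± 1.13 and Atp5sl at 3.91 ± 0.776 CPM per kb in WT, the last pair within their spread (SD, n = 3). These orders change with the union of all exons as the length. In WT, Sdha then lies above Sdhb and Atp5a1 above Ndufa4, while in iKO Sdhb stays above Sdha. By that length Sdha has 4126 bases in place of 2900, and Sdhb 2239 in place of 1142.

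**Figure D3:**
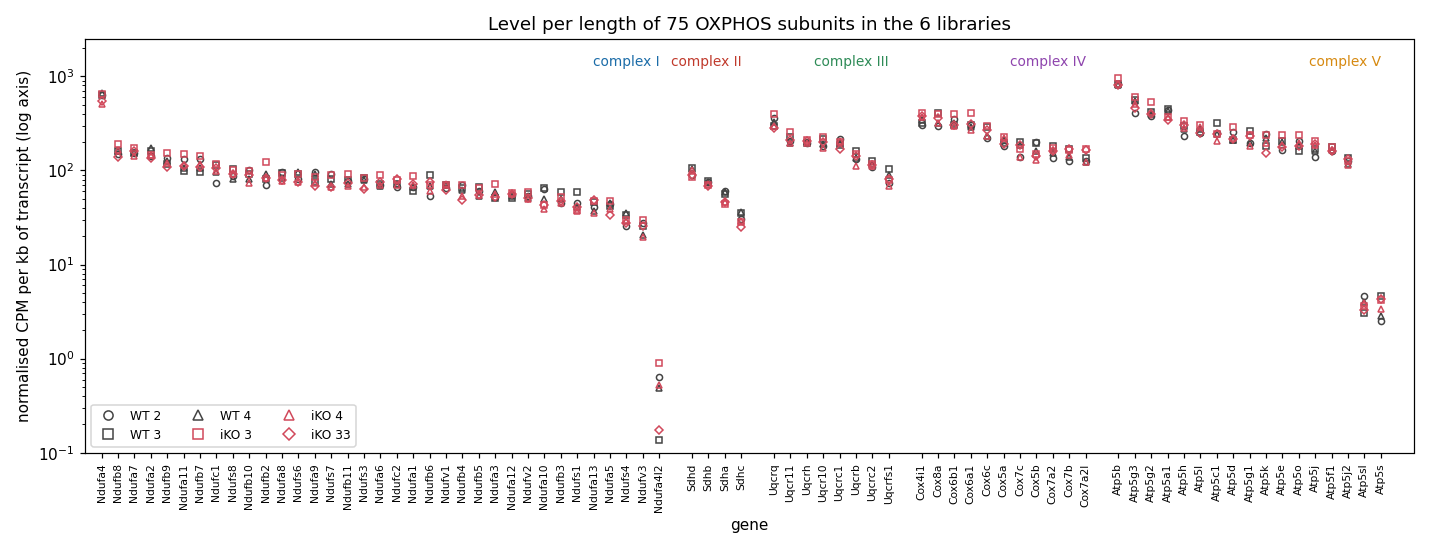
Normalised CPM per kb of transcript on a log axis for 75 of the 76 tested genes, sorted within complexes by their mean; each marker is 1 of the 6 libraries, WT in grey and iKO in red. WT and iKO markers lie close together for nearly all genes, from Atp5b at the top to Ndufa4l2 at 0.421 ± 0.259 CPM per kb in WT.

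The libraries labelled iKO did not behave alike. The library iKO 3 was the highest of all 6 for 37 of the 76 members, 48.7%, against 21.4% of all tested genes, and the highest of the 3 iKO libraries for 58 members. The mean log2 CPM over complex I was 6.00 in iKO 3 but 5.72 in iKO 4 and 5.72 in iKO 33, with WT between 5.82 and 5.85. Without iKO 3 the median log2 fold change of complex I was -0.12 and that of complex V was -0.05. The same library was high for cytosolic ribosomal protein genes, at a mean log2 CPM of 9.76 against 9.43 to 9.47 in the other 5. For these genes iKO 4 and iKO 33, at 9.47 each, also lay slightly above WT, at 9.43 to 9.46. Complex II did not follow this library: its mean in iKO 3, 6.63, lay within the 6.60 to 6.72 of the iKO group.

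**Figure D4:**
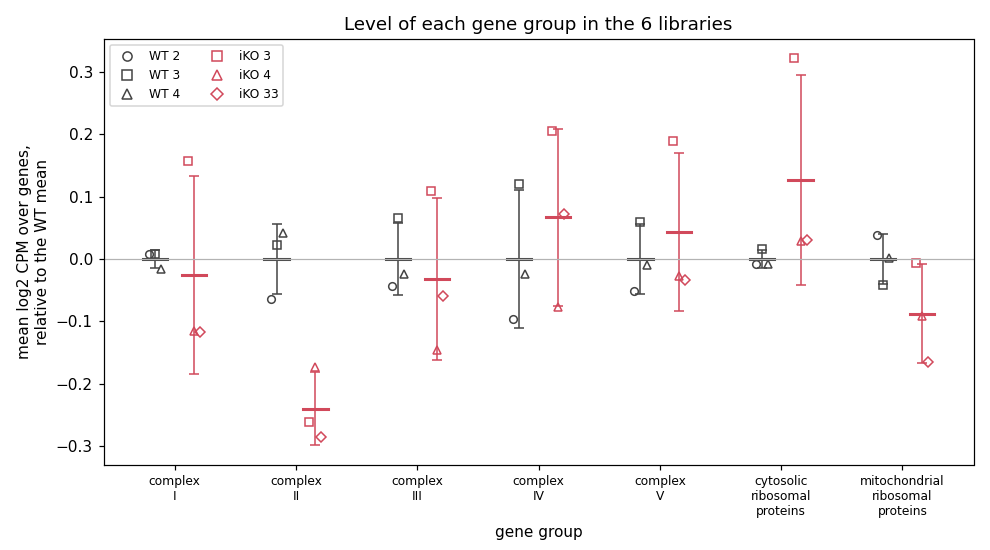
Mean log2 CPM over the tested genes of each complex and of the ribosomal protein groups, relative to the WT mean; markers are libraries, bars the group mean and lines the SD (n = 3). The library iKO 3 is the highest in complexes I, III, IV and V and in cytosolic ribosomal proteins, and complex II alone among the complexes separates the groups.

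The split by transcript length depended on how length was defined. With the shortest principal transcript, of the 27 members with a transcript of 1000 nt or more, 20 were lower in iKO (median log2 fold change -0.12), while of the 49 shorter ones 17 were lower (median 0.06). Over all tested genes 49.7% of the long and 41.3% of the short ones were lower. Off chromosome 1 the medians were -0.04 for 23 long and 0.07 for 47 short members. With the union of all exons as the length, 30 of 60 long and 7 of 16 short members were lower, with medians of 0.0069 and 0.03. Across the 76 members Spearman's rho of length and log2 fold change was -0.44, and -0.12 with the union length. The members share the same 6 libraries, so these are descriptions. The mean log2 CPM of long minus short members was 0.48, 0.54 and 0.44 in WT 2, 3 and 4 and 0.23, 0.40 and 0.44 in iKO 3, 4 and 33. Reads counted as not uniquely aligned also moved with the label, from 29.5% to 30.5% in WT and from 21.7% to 26.5% in iKO, and their part in the result was not tested.

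Members tended to lie on the same side of 0 as the other genes of their chromosome. All 6 tested members on chromosome 1 were lower in iKO, among them Ndufa10, Cox5b and Sdhc, with a median log2 fold change of -0.32. The 697 other tested genes of chromosome 1 had a median of -0.25, and 78.3% of them were lower. On chromosome 13 all 6 members were lower too, Sdha, Uqcrfs1, Ndufs6, Ndufs4, Uqcrb and Cox7c, with a median of -0.15, where the other 458 genes had a median of -0.19 and 74.5% were lower. Atp5a1 and Ndufa2, the members on chromosome 18, were both lower, and the median of the other genes there was -0.12.

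Chromosomes 8 and X showed the opposite sign. Ndufa13, Ndufb7 and Cox4i1 on chromosome 8 were all above 0, beside a median of 0.12 for its other tested genes. Ndufb11, Cox7b and Ndufa1 on X were above 0 beside a median of 0.08 there. Over the 76 members, Spearman's rho between a member's log2 fold change and the median of the other genes on its chromosome was 0.61, and 0.52 over the 70 members off chromosome 1. The same measure over 12574 tested genes with a chromosome was 0.25. Members of a chromosome share its median, and all values share the 6 libraries, so no test was made.

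Of the 9 members that were lower without overlap, 5 lay on chromosome 1. Off chromosome 1 the members divided into 39 higher and 31 lower, with a median log2 fold change of 0.03, close to all tested genes off chromosome 1, of which 6332 were higher and 5637 lower with a median of 0.02. Of the 70 members there, 2 were higher and 2 lower at an unadjusted edgeR p under 0.05, as were 901 and 789 of the 11969 genes. Set against its chromosome's median, a member was lower in 41 cases and higher in 35, with a median difference of -0.02. Complex II crosses several chromosomes, as Sdhc is on 1, Sdha on 13, Sdhb on 4 and Sdhd on 9. The median of the other tested genes was 0.0057 on chromosome 4 and 0.01 on chromosome 9, so Sdhb and Sdhd lay below chromosome medians close to 0. The cause of the difference between chromosomes was not tested.

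**Figure D5:**
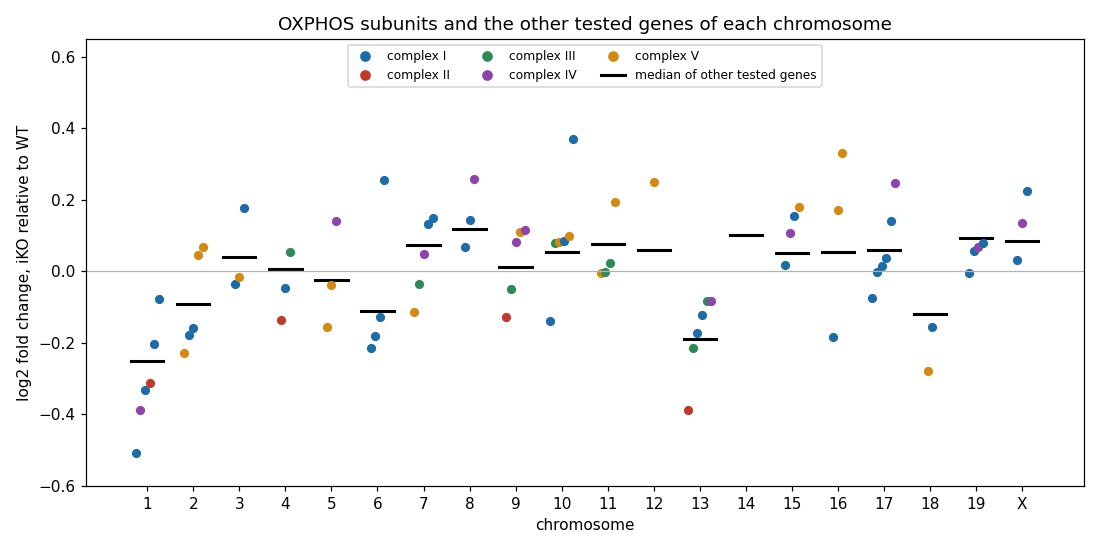
Log2 fold change, iKO relative to WT, of each tested OXPHOS gene (points, coloured by complex) by chromosome, with the median of that chromosome's other tested genes as a black bar. Chromosomes 1 and 13 have the lowest bars, -0.25 and -0.19, and all 12 members on them lie below 0.

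Promoters of these genes are known for sites of the regulators NRF1, ETS factors such as GABPA, and YY1. The RefSeq promoters of build GRCm38.p6, from 250 bases before to 50 after the gene start, covered 69 of the 84 members. The letters searched on both strands were GCATGCG for NRF1, CCGGAAG for ETS and AAGATGG for YY1. They occurred in 11, 16 and 12 of the 69 members, or 15.9%, 23.2% and 17.4%, and in 4.96%, 12.9% and 7.18% of the 17492 protein-coding genes with a promoter. The promoters of the members with the smallest edgeR p in each direction are shown, Atp5j (chr16:84834927-84835226, minus strand), the higher one, and Sdha (chr13:74350191-74350490, minus strand), the lower one. Capitals mark matches.
Atp5j: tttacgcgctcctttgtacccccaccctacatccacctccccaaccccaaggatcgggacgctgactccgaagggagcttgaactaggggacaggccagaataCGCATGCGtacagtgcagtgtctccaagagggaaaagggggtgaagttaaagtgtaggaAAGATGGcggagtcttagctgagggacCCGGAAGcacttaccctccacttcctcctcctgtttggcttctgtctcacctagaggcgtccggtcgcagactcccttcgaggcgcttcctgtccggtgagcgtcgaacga
Sdha: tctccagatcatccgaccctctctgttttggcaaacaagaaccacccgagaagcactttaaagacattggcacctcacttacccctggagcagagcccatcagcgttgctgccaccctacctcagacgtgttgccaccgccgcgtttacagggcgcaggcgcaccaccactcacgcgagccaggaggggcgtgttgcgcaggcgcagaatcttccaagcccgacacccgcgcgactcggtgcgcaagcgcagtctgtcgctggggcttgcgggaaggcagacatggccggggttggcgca
This Atp5j window, 1 of 2 listed for the gene, held all 3 motifs, with the NRF1 letters overlapping themselves on the opposite strand, while the other Atp5j window and the Sdha window held none of these letters. Among tested members with a promoter in the table, the median log2 fold change was 0.05 in the 32 with any motif and 0.03 in the 32 without. By motif the medians were 0.11 with NRF1, 0.06 with ETS and -0.06 with YY1. Without the motif they were 0.02, 0.0069 and 0.05. These differences were not tested.

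Genes that build or serve the machinery were read from separate lists, and 0 genes of each passed edgeR at an adjusted p under 0.05. Over all tested genes 0.339% did so, and 15.0% had an unadjusted edgeR p under 0.05, 7.32% higher and 7.70% lower. Of all genes with an adjusted p in DESeq2, 6.49% passed there. One list held OXPHOS genes that the symbol rule misses, such as the subunit genes Cyc1 and Usmg5 and the cytochrome c gene Cycs. It had 3 above and 2 below 0 and a median log2 fold change of 0.06, with 0 at an unadjusted p under 0.05. Assembly factor genes had 17 of 40 above and 23 below 0 and a median of -0.03. Of them 4, or 10%, had an unadjusted p under 0.05, all lower. Bcs1l, the chaperone that inserts the Rieske protein, stood at -0.44 (SE 0.14) and Cox10, which makes the haem of complex IV, at -0.46 (SE 0.16). No assembly factor passed DESeq2.

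Regulators of mitochondrial biogenesis stood lower as a list, with 16 of 18 below 0 and a median log2 fold change of -0.14, beside 0.01 over all tested genes. Ppargc1b, a coactivator that drives respiratory genes, measured 4.70 ± 0.0507 CPM in WT and 1.49 ± 0.201 in iKO (SD, n = 3). Its log2 fold change was -1.65 (SE 0.24), with an adjusted p of 0.0546 in edgeR and 1.27e-07 in DESeq2. Myc, a transcription factor that raises ribosome and mitochondrial genes, stood at -0.57 (SE 0.12), with adjusted p of 0.121 and 0.00393. In this list 4 genes, or 22.2%, had an unadjusted edgeR p under 0.05, 1 higher and 3 lower. Over all tested genes the share was 15.0%, or 7.32% higher and 7.70% lower. The higher gene was Gabpa, at 0.35 (SE 0.11). Ppargc1b and Myc were the 2 that passed DESeq2, beside 6.49% of all genes with an adjusted p there. Genes of the TCA cycle and pyruvate dehydrogenase had 8 above and 10 below 0 and a median of -0.05. Of them 3, or 16.7%, had an unadjusted p under 0.05, all lower, beside 15.0% of all tested genes and 7.70% lower. In DESeq2 2 of these 18 genes passed, Fh1 and Pdhx, both lower, beside 6.49% of all genes with an adjusted p there. Pdhx stood at -0.40 (SE 0.11). Fh1, the fumarase that acts after succinate dehydrogenase, measured 112 ± 2.66 CPM in WT and 85.4 ± 3.09 in iKO, a log2 fold change of -0.39 (SE 0.09), with an adjusted p of 0.150 in edgeR and 0.00564 in DESeq2. Among carriers and electron entry genes 11 were above and 13 below 0. Of them 5, or 20.8%, had an unadjusted p under 0.05, 2 higher and 3 lower. In DESeq2 2 passed, Slc25a4 and Pdss1, in opposite directions. Slc25a4, which exchanges ADP and ATP across the inner membrane, was higher at 0.34 (SE 0.09), with an adjusted p of 0.176 in edgeR and 0.00897 in DESeq2. Pdss1 was lower at -0.50 (SE 0.14), with an adjusted p of 0.178 in edgeR and 0.0349 in DESeq2. Unlike the members, the genes named from these lists are not set against the medians of their chromosomes here.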

How the data were processed

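RNA isolated with TRIzol and RNeasy columns was made into libraries with the TruSeq kit v2, per the labels' protocols. Tools named without a version in the submitters' processing notes are TopHat2, HTSeq, DESeq2 and DESeq, and the build is mm10. No source used here gives the annotation or strand setting, so a member and an overlapping gene may share reads. The deposited table holds raw counts per gene symbol. Its HTSeq summary rows, 27.4% to 35.5% of each column, were left out. The authors' deposited table of DESeq2 results holds a mean signal, log2 fold changes with standard errors, a score (the Wald statistic) and p-values, per the file headers.

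Counts were tested with edgeR 4.0.16 (quasi-likelihood, robust, TMM factors, filterByExpr with a minimum count of 10, Benjamini-Hochberg adjustment over all tested genes, threshold 0.05). All 6 libraries entered the fit, without a block. DESeq2 1.42.0 and limma-voom (limma 3.58.1) were alternatives, with other scalings, filters, blocks and leaving out each library. Scripts were tested on simulated data. CPM values use TMM factors, and mean log2 CPM a prior count of 2. Positions and lengths (shortest principal transcript) came from GENCODE, matched for all 84 members. Stretches of 50 bases were compared with all annotated transcripts, and 29 members shared 10% or more. Library pairs within a group differed beyond sampling noise (chi-square per degree of freedom at least 48.6). Genes were named by a rule: the smallest p, the largest changes and levels per complex, isoforms and untested members, and for other lists the smallest p. The members and lists were chosen with earlier results of these data known. Confidence intervals are at 95%. An exact test of 3 against 3 libraries cannot go below a two-sided p of 0.1. Of the tested members, 1 is counted but not reported here by name.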

Additional observations from a re-analysis of the deposited data

How the results depend on the processing

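Across the alternatives no member passed an adjusted p of 0.05 in edgeR or limma-voom, and DESeq2 called 2 members; adjusted p that DESeq2 gave as NA were left as NA. Over the alternatives the adjusted p ran from 0.00451 to 0.372 for Sdha and from 0.0289 to 0.399 for Ndufa10. Over all tested genes edgeR called 43, against 76 with no count filter, 774 with DESeq2, 152 at an adjusted p under 0.1 and 7 to 31 leaving out 1 library. The numbers 3 and 4 occur in both groups, but the labels do not say that they pair libraries; with a replicate block edgeR called 129 genes and 0 members. The correlation of deviations was 0.30 for the libraries numbered 3 and 0.66 for those numbered 4, but also 0.33 for WT 2 with iKO 3 and 0.23 for WT 3 with iKO 33, so iKO 3 correlated more with WT 2 than with WT 3. Leaving out 1 library, members with an unadjusted p under 0.05 numbered 3 to 7, the fewest without iKO 33 and 4 without WT 3 or WT 4. The median log2 fold change then ranged from -0.12 to 0.048 in complex I, -0.052 to 0.14 in complex V, -0.19 to -0.14 in biogenesis regulators and -0.087 to -0.023 in TCA cycle genes. The complex II median was -0.14 without members on chromosome 1, an alternative chosen after seeing the data, as was leaving out members that share sequence, which gave -0.0040 over all members. Without length scaling, Atp5g2 made up 26.4% in WT and 28.2% in iKO and Atp5g3 54.0% and 53.2%.

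Of 33 genes followed, 12 changed sign in at least 1 alternative. Leaving out 1 library, the log2 fold change ranged from -0.086 to 0.14 for Atp5g1, -0.088 to 0.13 for Atp5g3, -0.034 to 0.26 for Cox6a1, -0.098 to 0.12 for Cox6b1, -0.017 to 0.21 for Cox7a2, -0.23 to 0.033 for Cox7c, -0.025 to 0.22 for Cox8a, -0.22 to 0.82 for Ndufa4l2, -0.043 to 0.19 for Ndufb8, -0.039 to 0.16 for Uqcr11, -0.17 to 0.042 for Uqcrb and -0.17 to 0.090 for Uqcrq. Upper quartile scaling gave 0.012 for Atp5g1 and 0.011 for Uqcrq, the filter of 1 CPM 0.0014 and 0.0036, and a block for the deepest libraries 0.0055 for Atp5g1. The replicate block gave -0.0076 for Atp5g3, -0.028 for Cox8a and 0.15 for Uqcrq. Ndufa4l2 gave no value under the filter of 1 CPM. The cause of these sign changes was not tested. Low counts limit Ndufa4l2, Atp5s and the untested isoforms.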

Other observations

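The mitochondrial ribosome, which translates the subunits encoded in mitochondrial DNA, had 76 nuclear genes tested, 23 above and 53 below 0, with a median log2 fold change of -0.06 and 0 called by edgeR. At an unadjusted p under 0.05 there were 14, or 18.4%, of which 12 were lower, beside 15.0% of all tested genes and 7.70% lower. Of the 76, 2 passed DESeq2, beside 6.49% of all genes with an adjusted p there. The mitochondrial ribosome gene with the smallest p, Mrps30, measured 46.2 ± 1.41 CPM in WT and 32.5 ± 1.38 in iKO (SD, n = 3). It stood at -0.51 (SE 0.10) on the log2 scale and is not set against the median of its chromosome here. The cytosolic ribosomal protein genes had the other sign, with 69 of 76 above 0 and a median of 0.13, and the library iKO 3 was the highest for their mean.

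Atp5j lies head to head with Gabpa, the gene of the ETS factor GABPA, on chromosome 16, and their annotated spans overlap by 701 bases. Gabpa measured 57.1, 66.7 and 61.8 CPM in WT and 75.7, 78.4 and 83.2 CPM in iKO, without overlap, as Atp5j did. Its log2 fold change was 0.35 (SE 0.11, edgeR adjusted p = 0.210), beside 0.33 (SE 0.12) for Atp5j. The pair was noticed after the values were seen, and reads in the shared stretch may bear on both.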
